A study of Mus musculus with 6 samples.

Results

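Colony-stimulating factors (CSFs) are secreted proteins that keep myeloid cells alive and steer how they divide and mature. The genes described here are the ligand gene Csf1 and the receptor genes Csf1r, Csf2ra, Csf2rb, Csf2rb2 and Csf3r, chosen by gene symbol. These 6 genes were each listed once among the 17469 genes of the count table, and all 6 were among the 12701 genes with enough counts to be tested. RNA-seq was performed on tdTomato+ bone marrow stromal cells (BMSCs) from 6-month-old mice without treatment, with 3 libraries per genotype. Control mice were Ocn-Cre;Ai9, in which the osteocalcin promoter drives Cre recombinase and Ai9 is a CAG-promoter reporter that turns on tdTomato after Cre has removed a stop cassette. TgAPPswe;Ocn-Cre;Ai9 mice (TgAPPsweOCN;Ai9) carried the same Cre and reporter alleles, plus a CAG-driven human APPswe transgene whose stop cassette the same Cre removes. BMSCs are the cells of flushed marrow that attach to plastic. They were expanded and passaged, and their tdTomato+ cells were sorted by FACS and termed OB (osteoblast) progenitors by the study. The number of mice behind a library is not given, so p-values measure only the spread between these libraries, which may be technical.

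M-CSF, the product of Csf1, acts through the receptor tyrosine kinase encoded by Csf1r, the growth and survival receptor of monocytes, macrophages and osteoclast precursors. In bone marrow, stromal and osteoblast-lineage cells are known as a source of M-CSF. The GM-CSF receptor pairs a ligand-specific α chain, from Csf2ra, with a β chain from Csf2rb that the IL-3 and IL-5 receptors also use, and mice have a further β chain gene, Csf2rb2, whose product serves IL-3. Csf3r encodes the receptor for G-CSF, the main driver of neutrophil production. The GM-CSF, IL-3 and G-CSF receptors have no kinase domain of their own and signal through JAK2 and STAT factors.

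Estimated counts summed to 19340810 to 19801060 per control library (median 19627510) and to 21677461 to 22037840 per TgAPPsweOCN;Ai9 library (median 21892179). A floor of 3 counts lay at 0.136 to 0.155 CPM (counts scaled to the library total), which covers counting error only. App rose with a log2 fold change of 0.45 (edgeR, adjusted p = 7.87e-05), although mouse and human transcripts share its 1 entry. Against the name OB progenitors, markers of macrophages were far more abundant than those of osteoblasts in every library. Over 10 macrophage markers the median FPKM (mapped fragments scaled by gene length and library size) was 453 to 484 in control and 474 to 486 in TgAPPsweOCN;Ai9 libraries, against 1.62 to 2.13 and 1.47 to 4.04 over 15 osteoblast and marrow stroma markers. Bglap, which encodes osteocalcin itself, had an FPKM of 1.25, 0.97 and 0.35 in control libraries and of 0.49, 0.33 and 0 in TgAPPsweOCN;Ai9 libraries. The libraries numbered 3 stood between the others more often than their partners. Over the 11869 genes that had 10 counts or more in each library, library 3 held the middle FPKM of its genotype for 42.1% of the genes in control and 52.0% in TgAPPsweOCN;Ai9, and for all 6 CSF genes in both. The sources used here do not say whether the libraries numbered 3 are independent of the others, and this was not tested. If they are not, the SDs, permutation p-values and edgeR p-values with n = 3 rest on fewer independent libraries than that. Where leaving out both libraries numbered 3 changed a call of a CSF gene, that value is given.

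Csf1r and both β chain genes were down-regulated in TgAPPsweOCN;Ai9 libraries, and Csf2ra was lower by a smaller factor. Mean FPKM was 3.28-fold lower for Csf1r, 2.66-fold for Csf2rb, 4.95-fold for Csf2rb2 and 1.89-fold for Csf2ra. FPKM follows library totals, with which the median log2 fold change of all genes was -0.23, against -0.019 with the TMM scaling of edgeR, so that the edgeR fold changes are smaller. The ligand gene Csf1 and the G-CSF receptor gene Csf3r had differences close to the test's threshold, downward for Csf1 and upward for Csf3r. A gene is called up- or down-regulated here when its Benjamini-Hochberg adjusted p (edgeR, quasi-likelihood, over all genes tested) was 0.05 or less and its log2 fold change was 1 or more upward or downward. Of the 6 genes, 0 were up-regulated and 3 were down-regulated, where 8.90% of all genes tested were up-regulated and 9.20% down-regulated. By adjusted p alone, 1 of the 6 was higher and 4 were lower, against 32.5% and 31.5% of all genes tested. The median log2 fold change was -0.93 over the 6 genes and -0.019 over all genes tested. In sorted cells measured in bulk, fewer cells of a type and less RNA per cell cannot be told apart.

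**Figure D1:**
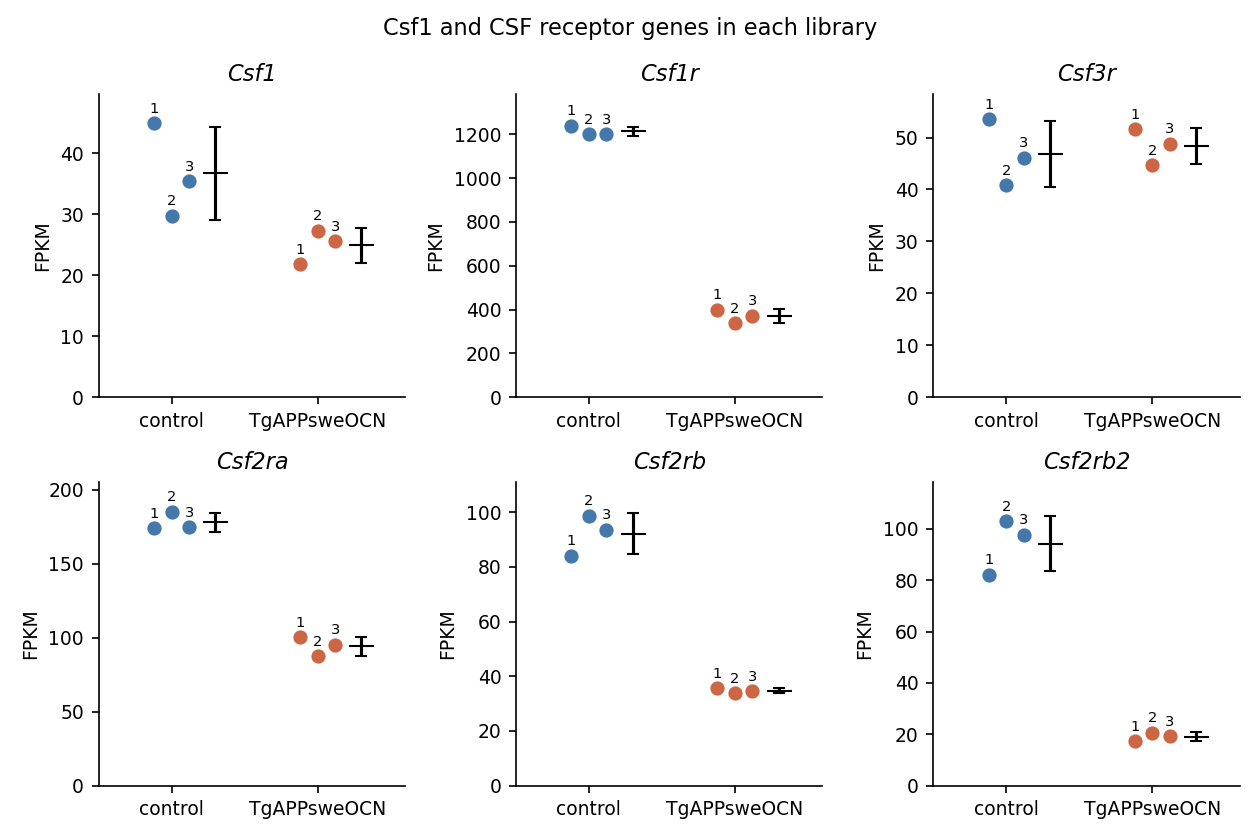
FPKM of the 6 CSF genes in the 3 control and 3 TgAPPsweOCN;Ai9 libraries (points, numbered by library), with the mean and SD of each genotype in black, each panel with its own axis from 0. The genotypes are apart for Csf1r, Csf2ra, Csf2rb, Csf2rb2 and, narrowly, Csf1, and overlap for Csf3r.

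Because the β chain genes are near-identical copies, how far reads can tell them apart bears on their values. Csf2rb lies at chr15:78325752-78353847 on the plus strand and Csf2rb2 at chr15:78282507-78305721 on the minus strand (mouse build GRCm38, GENCODE M21 annotation). Their coding sequences, of 2688 and 2634 bases, were identical at 2503 of 2628 aligned bases, or 95.2%. Of all 100-base windows of the Csf2rb coding sequence, 11.05% occurred without a mismatch in that of Csf2rb2, and of all 50-base windows 26.03%. The stretch that separates them best is shown first, a 120-base window of coding exon 4 with 16 differing bases in capitals, at chr15:78338867-78338986 (plus strand) in Csf2rb and chr15:78294345-78294464 (minus strand) in Csf2rb2.
Csf2rb: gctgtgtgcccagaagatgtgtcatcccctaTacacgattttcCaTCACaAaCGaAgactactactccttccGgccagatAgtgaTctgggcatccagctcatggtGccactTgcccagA
Csf2rb2: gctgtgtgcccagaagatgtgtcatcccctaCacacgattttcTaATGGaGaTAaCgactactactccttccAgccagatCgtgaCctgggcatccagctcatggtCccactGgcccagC
The longest stretch without a difference was 242 bases of coding exon 14, at chr15:78348577-78348818 in Csf2rb and chr15:78284630-78284871 in Csf2rb2. It is printed once, since a read that falls wholly inside it fits both genes.
Csf2rb and Csf2rb2: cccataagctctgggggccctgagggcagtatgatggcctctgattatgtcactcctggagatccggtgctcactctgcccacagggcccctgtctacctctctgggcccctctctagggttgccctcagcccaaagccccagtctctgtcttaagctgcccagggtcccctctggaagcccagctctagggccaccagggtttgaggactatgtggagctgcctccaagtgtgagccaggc
Both genes had fractional estimated counts in 6 of 6 libraries, which arise where a counter divides reads between genes, but so did Csf3r, and the counts of Csf2ra were fractional in 5 of 6 libraries.

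The ligand gene Csf1 (Entrez identifier 12977, chr3:107741048-107760469 on the minus strand) was expressed at an FPKM of 44.9, 29.7 and 35.4 in control libraries 1, 2 and 3, and of 21.8, 27.3 and 25.6 in the TgAPPsweOCN;Ai9 libraries. The genotypes did not overlap, but the lowest control library lay only just above the highest TgAPPsweOCN;Ai9 library, and the control libraries were more spread. Mean FPKM was 36.7 ± 7.69 in control and 24.9 ± 2.82 in TgAPPsweOCN;Ai9 (SD, n = 3 each). The edgeR log2 fold change was -0.35 (standard error 0.143, 95% interval -0.68 to -0.02) with an adjusted p of 0.0597, which misses the threshold. The value depended on scaling and on single libraries. Scaling by library totals alone gave -0.56 (adjusted p = 0.00957), DESeq2 gave -0.34 (adjusted p = 0.0230), and limma on log2(FPKM + 1) gave -0.53 (adjusted p = 0.0131). Without control library 1 it was -0.18 (adjusted p = 0.161), and without control library 2 it was -0.48 (adjusted p = 0.0107).

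Csf1r (Entrez identifier 12978), the receptor for M-CSF and IL-34, was the most abundant of the 6 genes. Its FPKM was 1239, 1201 and 1201 in control libraries and 400.3, 339 and 373 in TgAPPsweOCN;Ai9 libraries. Control libraries differed little from each other, and every TgAPPsweOCN;Ai9 library lay far below all of them. Means were 1214 ± 22.1 and 370 ± 30.9 (SD, n = 3 each), with a log2 fold change of -1.49 (standard error 0.0804, 95% interval -1.68 to -1.31, edgeR adjusted p = 1.21e-06) on the TMM scale, where expression fell by 64.5%. An exact two-sided permutation test over libraries gave p = 0.1, the smallest that 3 libraries against 3 allow, for Csf1r and likewise for Csf1, Csf2ra, Csf2rb and Csf2rb2. Csf1r counts were whole in every library. The gene Hmgxb3 overlaps Csf1r on the opposite strand and the labels do not say whether strand was kept, but the FPKM of Hmgxb3 was only 8.94 to 11.33 over the 6 libraries. Under all 15 alternatives Csf1r kept its call, with log2 fold changes of -1.71 to -1.42.

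Of the GM-CSF receptor genes, the α chain gene Csf2ra (Entrez identifier 12982, chr19:61223957-61228429 on the minus strand) had an FPKM of 174, 185 and 175 in control libraries and 100.2, 87.5 and 95.3 in TgAPPsweOCN;Ai9 libraries. The genotypes did not overlap, and the spread within each was small beside the gap between them. Means were 178 ± 6.23 and 94.3 ± 6.39 (SD, n = 3 each). The log2 fold change was -0.70 (standard error 0.0719, 95% interval -0.86 to -0.54, edgeR adjusted p = 4.59e-05), so that Csf2ra was lower without reaching the fold change of a down-regulated gene.

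The shared β chain gene Csf2rb (Entrez identifier 12983) had an FPKM of 84.1, 98.7 and 93.5 in control libraries and 35.7, 33.7 and 34.6 in TgAPPsweOCN;Ai9 libraries. All 3 TgAPPsweOCN;Ai9 libraries were low and close together. Means were 92.1 ± 7.39 and 34.7 ± 0.987 (SD, n = 3 each). It was down-regulated with a log2 fold change of -1.16 (standard error 0.0738, 95% interval -1.33 to -0.995, edgeR adjusted p = 2.96e-06).

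Csf2rb2 (Entrez identifier 12984), the IL-3 β chain gene, changed by the largest factor of the 6 genes. Its FPKM was 82.1, 102.9 and 97.8 in control libraries and 17.3, 20.7 and 19.2 in TgAPPsweOCN;Ai9 libraries, so that the genotypes lay wide apart. Means were 94.2 ± 10.8 and 19.1 ± 1.69 (SD, n = 3 each). The log2 fold change was -2.09 (standard error 0.0964, 95% interval -2.31 to -1.87, edgeR adjusted p = 5.39e-07). With the counts of Csf2rb and Csf2rb2 added together, so that the division of reads between them no longer counts, the log2 fold change was -1.57 (standard error 0.0799, 95% interval -1.75 to -1.38, edgeR adjusted p = 9.18e-07). The summed β chain counts thus met both thresholds as well, as did each of the 2 genes under all other alternatives.

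The G-CSF receptor gene Csf3r (Entrez identifier 12986, chr4:126024550-126044440 on the plus strand) had an FPKM of 53.5, 40.8 and 46.1 in control libraries and 51.6, 44.7 and 48.8 in TgAPPsweOCN;Ai9 libraries. The genotypes overlapped, with the highest and the lowest value both in control. Mean FPKM was 46.8 ± 6.36 and 48.4 ± 3.48 (SD, n = 3 each), and the exact two-sided permutation test on these values gave p = 0.8. After TMM scaling of the counts the log2 fold change was 0.27 (standard error 0.104, 95% interval 0.03 to 0.51) with an adjusted p of 0.0469 in edgeR, just past the threshold. That call was lost with scaling by library totals alone (0.057, adjusted p = 0.633) and with limma on log2(FPKM + 1) (0.052, adjusted p = 0.660). It was also lost without control library 2 (0.17, adjusted p = 0.133), control library 3 (0.27, adjusted p = 0.107), TgAPPsweOCN;Ai9 library 1 (0.23, adjusted p = 0.115) or TgAPPsweOCN;Ai9 library 3 (0.26, adjusted p = 0.124), and without both libraries numbered 3 (0.25, adjusted p = 0.238).

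**Figure D2:**
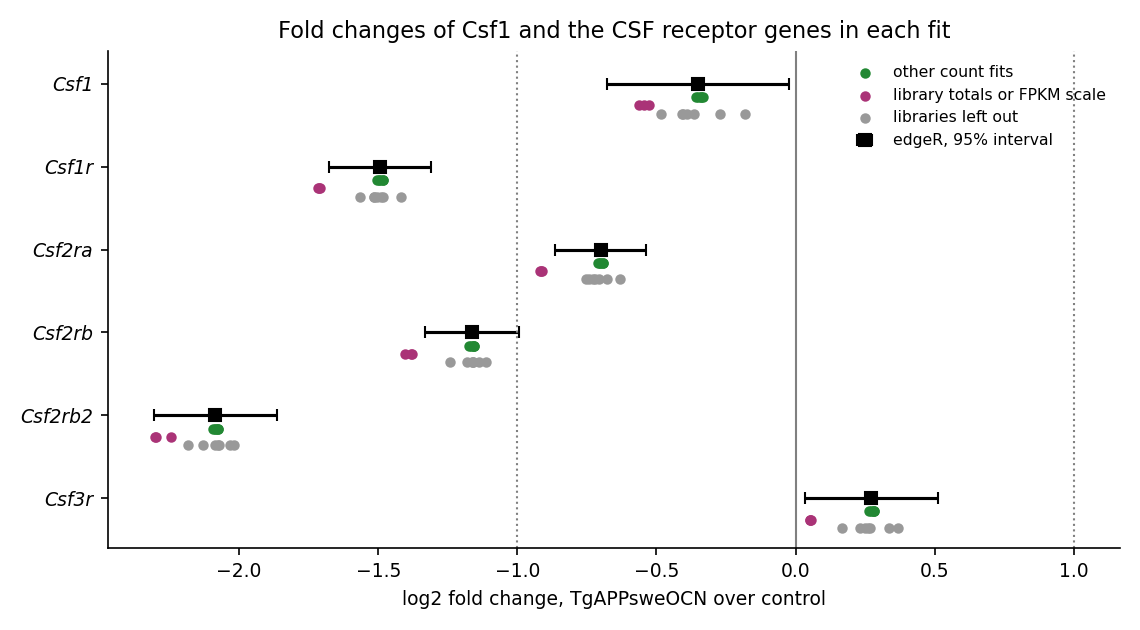
Log2 fold change of each CSF gene, TgAPPsweOCN;Ai9 over control: the edgeR value with its 95% interval (black squares) and the values under the alternatives (circles), with dotted lines at -1 and 1. The fold changes of Csf1r, Csf2rb and Csf2rb2 stay beyond -1 in every fit, but the 95% interval of Csf2rb reaches -0.995. The values of Csf3r move from 0.27 towards 0 with library totals or on the FPKM scale.

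The order of the levels differed between the genotypes, which is given as a description on the FPKM scale. In control libraries the order of mean FPKM was Csf1r, Csf2ra, Csf2rb2, Csf2rb, Csf3r and Csf1. There the values of Csf2rb2 and Csf2rb overlapped, as did those of Csf3r and Csf1, so that neither pair can be ordered beyond its spread. In TgAPPsweOCN;Ai9 libraries the order was Csf1r, Csf2ra, Csf3r, Csf2rb, Csf1 and Csf2rb2, and no neighbours overlapped. Csf2rb2 thus went from the level of Csf2rb to the lowest of the 6 genes. Summed over the 6 genes, FPKM was 1648 to 1678 in the control libraries and 552 to 627 in the TgAPPsweOCN;Ai9 libraries.

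Ratios of FPKM within a library do not depend on how libraries are scaled against each other. The ratio of Csf1 to Csf1r was 0.0363, 0.0247 and 0.0294 in control libraries and 0.0544, 0.0805 and 0.0687 in TgAPPsweOCN;Ai9 libraries, 2.25-fold higher on average. For Csf2ra over Csf2rb and Csf2rb2 together the ratio was 1.05, 0.918 and 0.913 in control and 1.89, 1.61 and 1.77 in TgAPPsweOCN;Ai9, 1.83-fold higher on average. Both ratios were higher in every TgAPPsweOCN;Ai9 library than in any control library. The share of Csf2rb2 in the summed β chain FPKM was 49.4%, 51.0% and 51.1% in control and 32.6%, 38.0% and 35.7% in TgAPPsweOCN;Ai9 libraries, on average 15.1 percentage points less. Each of these 3 comparisons had an exact two-sided permutation p of 0.1, the smallest the design allows, and 0.1 after Benjamini-Hochberg adjustment over the 3.

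**Figure D3:**
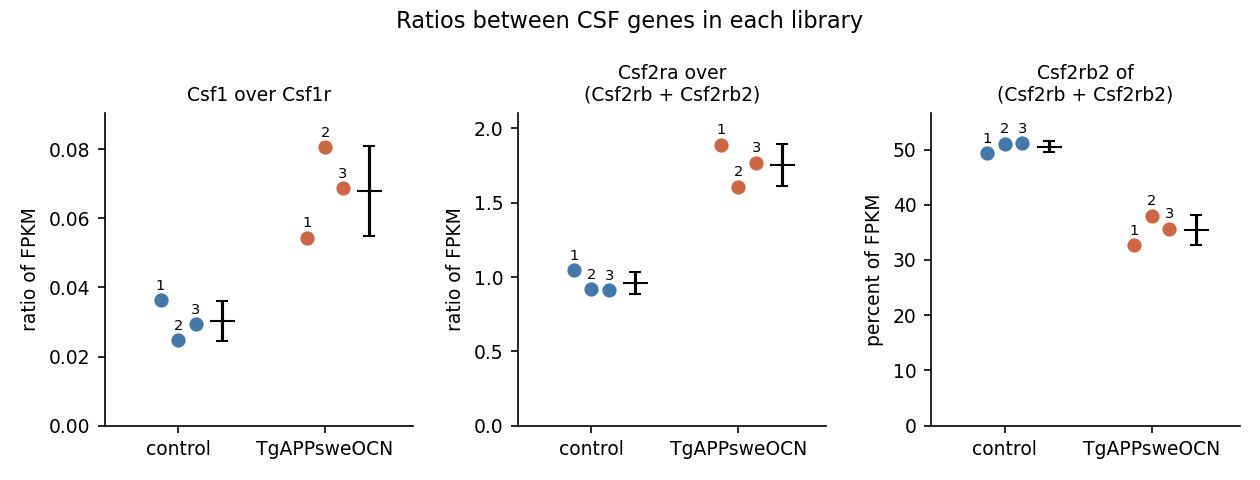
Ratio of Csf1 to Csf1r, ratio of Csf2ra to Csf2rb and Csf2rb2 together, and percent of Csf2rb2 in Csf2rb and Csf2rb2 together, from the FPKM of each library (points, numbered by library), with the mean and SD of each genotype in black. In each panel the 3 TgAPPsweOCN;Ai9 libraries are apart from the 3 control libraries, above them for the ratios and below them for the percent.

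Among the other ligands of these receptors, Csf3, which encodes G-CSF, was counted 2, 0 and 0 times in control, but 412, 71 and 199 times in TgAPPsweOCN;Ai9 libraries (FPKM 14.1, 2.38 and 7). The TgAPPsweOCN;Ai9 libraries differed several-fold from each other, but each lay above every control library. Csf3 was called up-regulated by edgeR (adjusted p = 0.000194). With 2, 0 and 0 control counts it passed edgeR's filter only through the genotype in which it was high. The call therefore restates the counts and is not separate evidence. A filter of 10 counts in every library would leave Csf3 untested. The ratio of its summed counts per total was 305 (95% counting interval 84.2 to 2527). Both control counts were in control library 1, so that no ratio can be given without it, and the ratio was 203 without control library 2, 205 without control library 3, and 182, 411 and 323 without TgAPPsweOCN;Ai9 library 1, 2 and 3. Csf2, the gene of GM-CSF, was at 0 counts in each control library and at 22, 6 and 21 counts in TgAPPsweOCN;Ai9, which edgeR's filter left untested. With no filter on low counts it was tested and called up-regulated by edgeR (adjusted p = 0.00128). So it was without any 1 control library (adjusted p = 0.00603 to 0.00846) and without TgAPPsweOCN;Ai9 library 2 (adjusted p = 0.000471). Since control stayed at 0 counts, Csf2 could enter these fits only through the genotype in which it was counted. The calls therefore restate the counts and are not separate evidence. Against the floor of 3 counts per library the mean level of Csf2 was at least 4.88-fold higher. Il34, the gene of the other CSF1R ligand, had a mean FPKM of 1.07 ± 0.22 in control and 1.04 ± 0.26 in TgAPPsweOCN;Ai9 (log2 fold change 0.18, edgeR adjusted p = 0.596), and its sign changed with scaling.

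The remaining receptor genes that use these β chains were at low or similar levels. Il3ra, the α chain gene of the IL-3 receptor, had a mean FPKM of 22.1 ± 4.09 in control and 18.7 ± 4.14 in TgAPPsweOCN;Ai9 (SD, n = 3 each). With a log2 fold change of -0.048 and an edgeR adjusted p of 0.825, it did not pass the test, and its sign changed when library 1 of either genotype was left out. Il5ra, the α chain gene of the IL-5 receptor, had an FPKM of at most 0.06 in any library and was not tested. Il3 and Il5, the genes of the ligands, had counts in 1 library each (FPKM 0.12) and were not tested.

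Signalling genes around the receptors included both up- and down-regulated genes. Together with the ligands and receptors just described they made 78 genes in 7 lists. Of the 74 that were tested, 14 were up-regulated and 7 down-regulated, and by adjusted p alone 31 were higher, 22 lower and 21 neither. These counts stand beside 8.90% up- and 9.20% down-regulated, and 32.5% higher and 31.5% lower, of all genes tested. Down-regulated genes numbered 5 without control library 2, without TgAPPsweOCN;Ai9 library 2 and without both libraries numbered 3, and 9 or 10 with library totals alone or in limma. The median log2 fold change of the 74 genes was 0.018, beside the -0.019 of all genes tested.

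Of 9 JAK kinases and STAT factors, 2 were up-regulated and 0 down-regulated, with a median log2 fold change of 0.25. Jak2, the kinase bound by the β chain, rose from a mean FPKM of 9.54 ± 0.436 to 21.1 ± 4.11 (log2 fold change 1.42, edgeR adjusted p = 2.73e-05). Stat5a, the classical STAT of GM-CSF and IL-3 signals, was higher by 0.32 on the log2 scale (edgeR adjusted p = 0.00385). That call was lost with library totals alone (0.10, adjusted p = 0.240), in limma on FPKM and without both libraries numbered 3. Its FPKM overlapped between the genotypes, with means of 6.85 ± 0.460 in control and 7.32 ± 0.376 in TgAPPsweOCN;Ai9.

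Of 22 receptor-proximal kinases and adaptors, 6 were up-regulated and 1 down-regulated, with a median of 0.35. Fgr, a Src-family kinase gene, had an FPKM of 1.94, 1.65 and 1.96 in control and 6.23, 5.33 and 5.29 in TgAPPsweOCN;Ai9 libraries (log2 fold change 1.83, edgeR adjusted p = 3.65e-06). Sos1, which activates Ras, rose from a mean of 4.50 ± 0.465 to 12.8 ± 2.55 (log2 fold change 1.72, edgeR adjusted p = 9.12e-06). Every TgAPPsweOCN;Ai9 library lay above every control library for both genes.

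Among 15 feedback inhibitors, 2 were up-regulated and 0 down-regulated, and 4 were higher and 4 lower by adjusted p alone (median -0.064). Socs1 and Socs3, which encode inhibitors of cytokine receptors and JAKs, were the 2 up-regulated genes. Socs1 had an FPKM of 2.37, 2.06 and 2.22 in control and 13.9, 13.6 and 14.0 in TgAPPsweOCN;Ai9 libraries (log2 fold change 2.85, edgeR adjusted p = 2.05e-07). Socs3 rose from a mean of 20.02 ± 1.497 to 55.2 ± 4.86 (log2 fold change 1.68, edgeR adjusted p = 1.31e-06), while Socs6 was lower by adjusted p alone (-0.69, adjusted p = 1.66e-05).

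The 9 survival and proliferation targets held 2 up- and 2 down-regulated genes (median -0.14), but 1 up-regulated gene with library totals alone, in limma, or without control library 1 or TgAPPsweOCN;Ai9 library 3. The count of down-regulated genes was 1 without control library 2, without library 2 or 3 of TgAPPsweOCN;Ai9 or without both libraries numbered 3, and 3 with library totals alone or in limma on log2(FPKM + 0.1). Pim2, a survival kinase induced by STAT5, was at an FPKM of 4.13, 4.37 and 4.22 in control and 69.8, 48.8 and 60.7 in TgAPPsweOCN;Ai9 libraries (log2 fold change 4.03, edgeR adjusted p = 1.96e-07). Ccnd1, the cyclin D1 gene that M-CSF induces, was down-regulated from a mean of 103 ± 1.397 to 42.7 ± 3.73 (log2 fold change -1.06, edgeR adjusted p = 7.24e-06). It was -0.97 without TgAPPsweOCN;Ai9 library 2, within the fold change threshold. Osm, a cytokine gene induced by STAT5, was down-regulated by -1.09 (edgeR adjusted p = 0.0138), but its control libraries ran from an FPKM of 7.07 to 18.5, and without both libraries numbered 3 the adjusted p was 0.127. It fell short of the call as well without control library 2 (-0.77) or TgAPPsweOCN;Ai9 library 3 (-0.99).

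The 11 transcription factors known to act on these receptor genes had the lowest median of the lists, -0.65. Here 1 gene was up-regulated and 4 down-regulated, and by adjusted p alone 2 were higher and 8 lower. The count of down-regulated genes was 3 without control library 2, without TgAPPsweOCN;Ai9 library 2 or without both libraries numbered 3, and 5 with library totals alone or in limma. Cebpa, which encodes a factor of the myeloid Csf3r and Csf1r promoters, had an FPKM of 133, 151 and 137 in control and 28.0, 33.3 and 29.9 in TgAPPsweOCN;Ai9 libraries (log2 fold change -1.99, edgeR adjusted p = 1.96e-07). Ets2 moved the other way, from a mean of 27.4 ± 0.949 to 139.9 ± 3.66 (log2 fold change 2.57, edgeR adjusted p = 2.23e-08). Spi1, the gene of the master myeloid factor PU.1, was higher (0.54, adjusted p = 9.37e-05) and Runx1 lower (-0.88, adjusted p = 7.11e-06). Both were named after their values were seen, since the rule for named genes takes the largest 3 changes of a list.

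Of 5 genes of receptor shedding and turnover, by which surface CSF1R is cut off, 0 were up- or down-regulated. Rhbdf2, needed for the maturation of the protease ADAM17, was higher with a mean FPKM of 27.2 ± 1.21 in control and 45.7 ± 5.06 in TgAPPsweOCN;Ai9 (log2 fold change 0.99, edgeR adjusted p = 2.21e-05). Its value reached 1.004 with RLE size factors or DESeq2, 1.01 without control library 1 and 1.09 without TgAPPsweOCN;Ai9 library 2, which made it up-regulated there. Rhbdf1 was lower (-0.64, edgeR adjusted p = 0.00109). Timp3, an inhibitor of ADAM17, had a log2 fold change of -0.73 with an adjusted p of 0.0794, and was lower with library totals alone (-0.95, adjusted p = 0.0287) and with the replicate number as a block (-0.83, adjusted p = 0.00987). It was down-regulated in limma on log2(FPKM + 1) (-1.02, adjusted p = 0.0248) and log2(FPKM + 0.1) (-1.05, adjusted p = 0.0240) and without TgAPPsweOCN;Ai9 library 1 (-1.11, adjusted p = 0.00831).

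**Figure D4:**
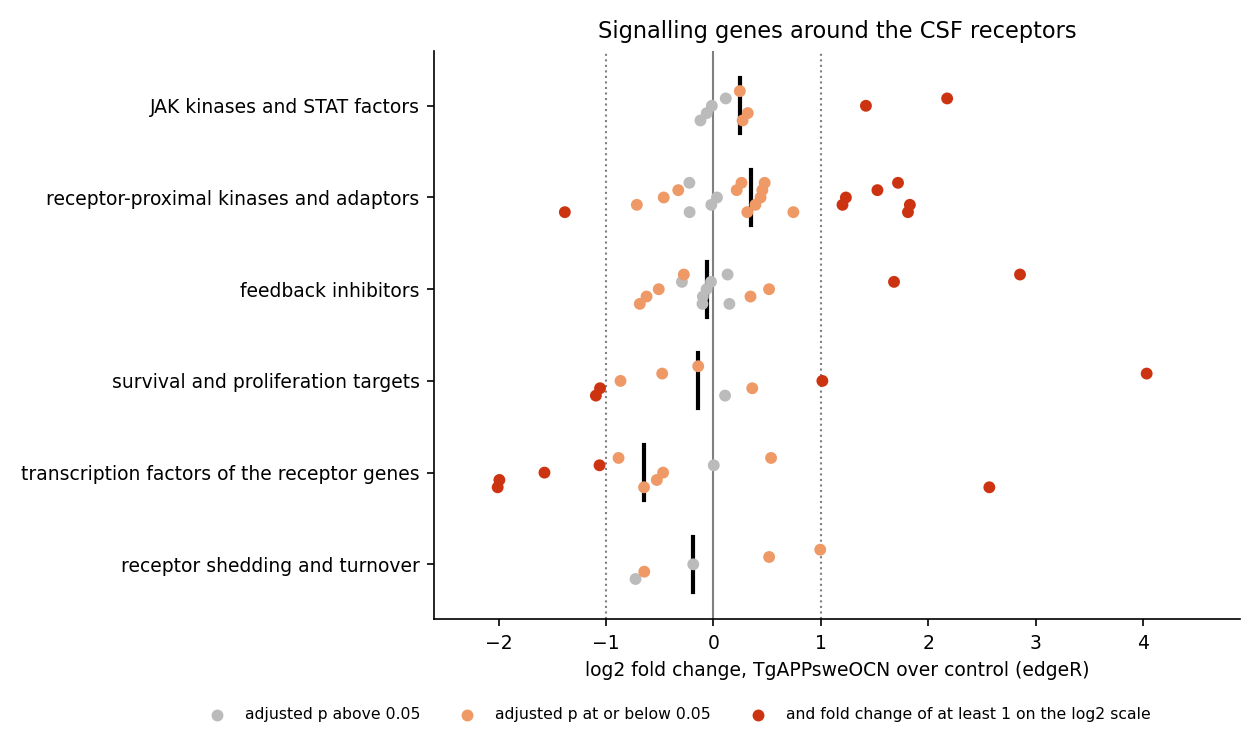
Log2 fold changes of the tested genes in 6 lists of signalling genes around the CSF receptors (one point per gene, spread vertically only for sight), coloured by the edgeR call, with the list median as a black bar and dotted lines at -1 and 1. The list of transcription factors has the lowest median, -0.65.

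For 4 of the 6 genes, 250 bases upstream of the start from RefSeq (build GRCm38.p6) were used here and searched on both strands for the PU.1 core GAGGAA and the C/EBP motif TTGCNNAA. Of 32851 entries of this length, 23.3% held GAGGAA and 9.56% held TTGCNNAA. GAGGAA occurred 1 time for Csf2rb2 and Csf3r, 2 times for Csf2ra and 0 times for Csf1, and TTGCNNAA in none of the 4. Since Csf2rb2 changed most, its upstream sequence at chr15:78305722-78305971 (minus strand) is shown, with the match in capitals as it reads on this strand.
Csf2rb2: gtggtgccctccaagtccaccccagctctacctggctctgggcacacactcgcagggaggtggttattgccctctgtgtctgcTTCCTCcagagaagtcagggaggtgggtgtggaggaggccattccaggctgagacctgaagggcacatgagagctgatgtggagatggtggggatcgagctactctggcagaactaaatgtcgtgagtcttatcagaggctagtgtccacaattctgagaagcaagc
A match describes these letters and is neither a shown binding site nor a cause of the change.

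The genes whose pattern over the 6 libraries was nearest to that of Csf1r were Dalrd3, Zfp395 and Trpv4, out of 11863 genes compared. Likeness was the root-mean-square difference in log2 CPM after centring each gene on its control mean. It was 0.0383 for Dalrd3, 0.0449 for Zfp395 and 0.0573 for Trpv4, with log2 fold changes of -1.51, -1.46 and -1.51. All 3 were expressed far below Csf1r, with control means of 34.3, 12.4 and 13.6 FPKM. Nearest to Csf1 were Ifitm1 (0.0588), Kiz (0.0677) and Tmem223 (0.0691), with log2 fold changes of -0.37, -0.33 and -0.37.

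Markers of the cell types that the sorted cells could hold moved with genotype in several lists, and their part in the CSF gene values was not tested. The summed FPKM of 10 macrophage markers was 18541 to 19755 in control and 12711 to 16643 in TgAPPsweOCN;Ai9 libraries, with 3 genes up- and 3 down-regulated. Its most abundant genes were Lyz2 (log2 fold change -0.16, edgeR adjusted p = 0.418), C1qb (-0.54, adjusted p = 0.000136) and C1qa (-0.44, adjusted p = 0.000675). Other members of the list, named after their values were seen, moved further and in both directions, with Adgre1 (1.89), Fcgr1 (1.30) and Itgam (1.26) up-regulated and Mrc1 (-2.38), Mertk (-1.39) and Cd68 (-1.26) down-regulated. The summed macrophage FPKM was thus lower in every TgAPPsweOCN;Ai9 library, by a smaller factor than Csf1r, whereas the median FPKM of the list overlapped between the genotypes.

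Neutrophil markers, set beside Csf3r and Csf3, summed to an FPKM of 19.8 to 63.5 in control and 23.2 to 57.6 in TgAPPsweOCN;Ai9 libraries over 12 genes. Of the 10 tested, 1 was up-regulated and 0 down-regulated. The up-regulated gene, named after its values were seen, was Camp, with a mean FPKM of 0.453 in control and 3.23 in TgAPPsweOCN;Ai9 (log2 fold change 3.02, edgeR adjusted p = 0.00175). The most abundant were S100a9 (log2 fold change -0.094, edgeR adjusted p = 0.916), S100a8 (0.89, adjusted p = 0.0902) and Ngp (0.095, adjusted p = 0.924). Ly6g and Retnlg, which define mature neutrophils, were listed at 0 in all control libraries and had a mean FPKM of 0.04 and 0.03 in TgAPPsweOCN;Ai9.

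Osteoblast and marrow stroma markers, set beside Csf1, summed to an FPKM of 220 to 265 in control and 172 to 252 in TgAPPsweOCN;Ai9 libraries over 15 genes. Of the 14 tested, 2 were up-regulated and 0 down-regulated, and by adjusted p alone 4 were higher and 3 lower. Of the most abundant, Sparc was lower (log2 fold change -0.39, edgeR adjusted p = 0.00531), and Col1a2 (-0.12, adjusted p = 0.367) and Col1a1 (-0.17, adjusted p = 0.261) did not pass the test. The up-regulated genes, named after their values were seen, were Dcn, whose mean FPKM was 0.447 in control against 5.97, and Lum, with 0.010 against 0.767.

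Osteoclasts, which depend on CSF1R, were represented by 7 markers with a summed FPKM of 37.1 to 58.6 in control and 104 to 226 in TgAPPsweOCN;Ai9 libraries. There 3 genes were up- and 1 down-regulated, and the most abundant moved apart, with Mmp9 (log2 fold change 6.23, edgeR adjusted p = 3.91e-06) and Acp5 (3.12, adjusted p = 2.73e-05) higher and Atp6v0d2 lower (-2.38, adjusted p = 1.64e-05). Over 8 dendritic cell markers the sum was 16.6 to 41.5 in control and 8.21 to 18.9 in TgAPPsweOCN;Ai9 libraries, nearly all of it from Itgax (-0.97, adjusted p = 0.0507), while Xcr1 was the 1 up-regulated gene of the 3 tested (1.88, adjusted p = 0.000133) and had, like Flt3, a mean FPKM below 0.5 in both genotypes. Mast cell and progenitor markers summed to 7.91 to 10.7 and 1.17 to 1.59, mainly from Cd34 (-2.70, adjusted p = 4.89e-06), while the mean FPKM of Kit and Cpa3 was below 0.2 in both genotypes. Endothelial markers (Pecam1, Cdh5, Kdr and Tek) summed to 3.67 to 4.78 and 4.96 to 5.51, with Pecam1 up-regulated (1.03, adjusted p = 0.000116) and Kdr lower (-0.97, adjusted p = 0.00113), and lymphocyte markers to at most 0.21 and 0.22.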

How the data were processed

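RNA-seq was measured in 6 libraries of sorted tdTomato+ BMSCs. The authors removed rRNA, low-quality and adaptor reads. The submitters' processing notes name HISAT2 2.0.4, Bowtie2 2.2.5, RSEM 1.2.12, DESeq2 1.4.5 and the build mm10 (GRCm38). The authors deposited estimated counts, fractional for 13.3% to 14.4% of the genes per library, and FPKM values rounded to 2 decimals. A further deposited table repeats FPKM and holds the authors' log fold changes and p-values, which were not used here.

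The test was planned on counts; since the table holds estimated counts, these were rounded to whole numbers. The quasi-likelihood test of edgeR 4.0.16 (R 4.3.3), after filterByExpr and TMM scaling, compared 3 TgAPPsweOCN;Ai9 with 3 control libraries without a replicate block, and p-values were adjusted by Benjamini-Hochberg over 12701 genes. The biological coefficient of variation was 9.85%. Values are means ± SD. The thresholds, adjusted p 0.05 and log2 fold change 1, follow the study's methods. The test was checked on simulated data. Alternatives were DESeq2 1.42.0, RLE factors, library totals alone, 2 filters on low counts, a replicate block, summed counts of Csf2rb and Csf2rb2, limma 3.58.1 on log2(FPKM + 1) and log2(FPKM + 0.1), and each library left out. Leaving out both libraries numbered 3 was added after the data were seen.

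The CSF genes, lists and markers were chosen with earlier results of these data known. The text names the 6 genes, all other CSF ligands and receptors, the 3 largest changes of every other signalling list, the 3 most abundant markers of each cell type, and the 3 genes nearest in pattern to Csf1r and Csf1 (at least 10 counts in every library, prior count 2 in log2 CPM). Some genes under this rule are not reported here. Library correlations of log2 CPM were 0.985 to 0.993 within and 0.914 to 0.925 between genotypes. Coding sequences were read from GENCODE M21 and upstream sequences from RefSeq. The sources used here do not say whether reads kept their strand. Tables, alignments and plots were made with pandas 2.3.3, numpy 2.4.6, biopython 1.88, scipy 1.17.1 and matplotlib 3.10.9 under Python 3.11.15.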

Additional observations from a re-analysis of the deposited data

How the results depend on the processing

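Csf1r and Csf2ra kept their direction and calls in all 15 alternatives, and Csf2rb and Csf2rb2 in all 16. Leaving out 1 library at a time gave log2 fold changes of -1.57 to -1.42 for Csf1r, -0.75 to -0.63 for Csf2ra, -1.24 to -1.11 for Csf2rb and -2.18 to -2.02 for Csf2rb2. Csf1 passed the threshold with library totals alone (-0.56), with DESeq2 (-0.34), in limma on log2(FPKM + 1) (-0.53) and on log2(FPKM + 0.1) (-0.54). With 1 library left out it ran from -0.48 to -0.18 and passed only without control library 2. Without both libraries numbered 3 the edgeR adjusted p of Csf1 was 0.165. Csf3r fell short with library totals alone (0.057) and in limma with a pseudocount of 1 or 0.1 (0.052 and 0.053). It also fell short without both libraries numbered 3 (0.25) and without control library 2 or 3 or TgAPPsweOCN;Ai9 library 1 or 3. Its value ran from 0.17 to 0.37 with 1 library left out. Library totals alone lowered the median log2 fold change of all genes by 0.22, limma on log2(FPKM + 1) by 0.14 and on log2(FPKM + 0.1) by 0.20, so the values of single genes in those fits are to be read relative to that shift. Genes up- and down-regulated numbered 846 and 1732 with library totals alone, 593 and 845 in limma on log2(FPKM + 1), and 811 and 1510 on log2(FPKM + 0.1), against 1130 and 1169. The sign of Il34 turned with library totals alone (-0.040), in limma (-0.026 and -0.053) and without both libraries numbered 3 (-0.085), and that of Il3ra without library 1 of either genotype, over a range of -0.16 to 0.13 with 1 library left out. The cause of these changes was not tested.

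The labels give both genotypes the numbers 1 to 3 without saying that they mark pairs. Deviations from the genotype means correlated at 0.0127, 0.00664 and 0.141 for the same-numbered libraries, so the numbers were not taken as pairs, and only the libraries numbered 3 correlated best with their own number. With the replicate number as a block the log2 fold change was -0.33 for Csf1 (adjusted p = 0.117) and 0.28 for Csf3r (adjusted p = 0.00818), and 1115 genes were up-regulated and 1147 down-regulated. The block changed no call of the 6 CSF genes. It moved Timp3 past the threshold (-0.83, adjusted p = 0.00987) and Tmem223 out of it (-0.37, adjusted p = 0.0620). Depth limits Il3, Il5 and Il5ra, whose counts were at or near the floor of 3, and Csf2, which had 0 counts in control.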
